A study of Mus musculus with 4 samples.

Results

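A set of 5 genes encodes protein kinases that are enriched in heart or muscle, several of them acting on the contractile apparatus: Mylk3, Tnni3k, Alpk2, Alpk3 and Speg. They were picked by symbol, partly because Mylk3, Tnni3k and Alpk2 had large differences between these same libraries, so their values below are a description and carry no test. All 5 members were present among the 23631 genes of the promoter count table, and all 5 were among the 22835 whose count averaged 10 or more over the libraries. Where a gene had several RefSeq transcripts, the transcript with the highest mean count was used. Only Speg had more than 1, with 4.

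Acetylated histone H3, a mark of active chromatin, was immunoprecipitated and the bound DNA sequenced from the left ventricle of male C57BL6 mice 10 to 12 weeks old. The TAC TSA and TAC Veh groups had transverse aortic constriction, a narrowing of the aorta that loads the left ventricle with pressure, and the Sham TSA and Sham Veh groups a control operation. TSA, trichostatin A, is an inhibitor of histone deacetylases and was given at 0.6 mg per kg per day, in 2 subcutaneous injections a day for 4 weeks, and Veh groups received its solvent DMSO. Each group was 1 library, so nothing below has a replicate, no comparison has a p-value, and the intervals cover counting error only. How many animals went into a library is not given in the sources used here.

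Mylk3 is the cardiac myosin light chain kinase, which phosphorylates the regulatory light chain of ventricular myosin (Myl2) and so tunes the force of contraction. Tnni3k is a heart-enriched kinase found through its binding to cardiac troponin I (Tnni3). Alpk2 and Alpk3 belong to the alpha kinases, a family unrelated in sequence to conventional protein kinases, and loss of ALPK3 causes cardiomyopathy in humans. Speg is a giant muscle protein with kinase domains, related to titin, which acts at the junction of the sarcoplasmic reticulum with the cell membrane. Histone acetyltransferases and deacetylases set the acetylation of histone H3, and the mark is usually dense at promoters of genes a cell uses. Whether the proteins sit in the sarcomere or in the nucleus is not something that promoter acetylation measures.

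The promoter sequences are shown because acetylation was counted at promoters. RefSeq gave 8 windows for 4 of the 5 members on GRCm38.p6, from 250 bases before to 50 bases after an annotated start. Counts were made on mm9 with a promoter window that is not given in the sources used here, so the windows need not be the counted ones. The table of sequences does not say which start belongs to which transcript. Alpk2 is named without a sequence. Capitals mark matches, on either strand, to the MEF2 site, the GATA motif AGATAA, the TEAD motif CATTCC and the TATA box TATAAA.
Mylk3 upstream start, chr8:85380992-85381291, minus strand: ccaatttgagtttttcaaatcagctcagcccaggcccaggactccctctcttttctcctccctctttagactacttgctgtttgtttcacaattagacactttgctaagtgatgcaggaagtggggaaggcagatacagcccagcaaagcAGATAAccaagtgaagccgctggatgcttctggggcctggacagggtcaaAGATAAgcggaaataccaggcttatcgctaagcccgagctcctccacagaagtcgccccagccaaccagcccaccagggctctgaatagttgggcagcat
Mylk3 downstream start, chr8:85365275-85365574, minus strand: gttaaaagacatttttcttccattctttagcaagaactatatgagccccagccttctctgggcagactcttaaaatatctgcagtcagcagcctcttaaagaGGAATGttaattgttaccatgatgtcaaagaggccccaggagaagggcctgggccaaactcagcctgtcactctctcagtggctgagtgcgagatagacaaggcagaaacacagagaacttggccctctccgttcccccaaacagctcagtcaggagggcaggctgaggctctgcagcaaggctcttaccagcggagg
Tnni3k, chr3:155055358-155055657, minus strand: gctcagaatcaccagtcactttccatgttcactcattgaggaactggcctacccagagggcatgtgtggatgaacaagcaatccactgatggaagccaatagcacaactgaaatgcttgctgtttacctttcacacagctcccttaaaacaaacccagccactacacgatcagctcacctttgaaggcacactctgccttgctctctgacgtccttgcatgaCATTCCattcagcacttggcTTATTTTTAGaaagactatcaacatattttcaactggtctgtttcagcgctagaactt
Alpk3, chr7:81057350-81057649, plus strand: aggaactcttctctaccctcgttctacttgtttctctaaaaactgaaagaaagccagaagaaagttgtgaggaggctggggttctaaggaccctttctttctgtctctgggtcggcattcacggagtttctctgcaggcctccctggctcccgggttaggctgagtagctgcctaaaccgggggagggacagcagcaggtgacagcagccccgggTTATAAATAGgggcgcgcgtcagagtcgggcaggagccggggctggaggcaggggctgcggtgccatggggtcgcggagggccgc
Speg most upstream start, chr1:75375047-75375346, plus strand: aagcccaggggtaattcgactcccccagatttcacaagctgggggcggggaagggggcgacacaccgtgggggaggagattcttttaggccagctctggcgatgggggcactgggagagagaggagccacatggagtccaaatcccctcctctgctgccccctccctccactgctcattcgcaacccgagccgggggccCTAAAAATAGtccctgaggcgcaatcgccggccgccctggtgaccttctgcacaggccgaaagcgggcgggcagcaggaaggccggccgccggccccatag

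A MEF2 site, the recognition sequence of the muscle factors of that name, lay in the windows of Tnni3k, Alpk3 and the most upstream Speg start, and 3.19% of the 32817 RefSeq promoter windows of this length held one. In Tnni3k the match spanned the start, from base -8 to base 2, where base 1 is the first transcribed base. In Alpk3 it ran from -35 to -26 and contained the TATA box at -34 to -29, and in Speg it ran from -51 to -42. The upstream Mylk3 window held no MEF2 site but 2 copies of AGATAA, at -100 to -95 and -50 to -45, where 11.2% of all windows held at least 1. TEAD motifs, held by 14.7% of all windows, were present in the downstream Mylk3 window, in Tnni3k and at the other Speg starts numbered 3 and 4 from the 5' end. None of the 8 windows held a CArG box, which 1.63% of all windows did. E-boxes (CANNTG), common to 72.3% of all windows, were in 7 of the 8. These are matches of letters and were not tested for binding.

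**Figure D1:**
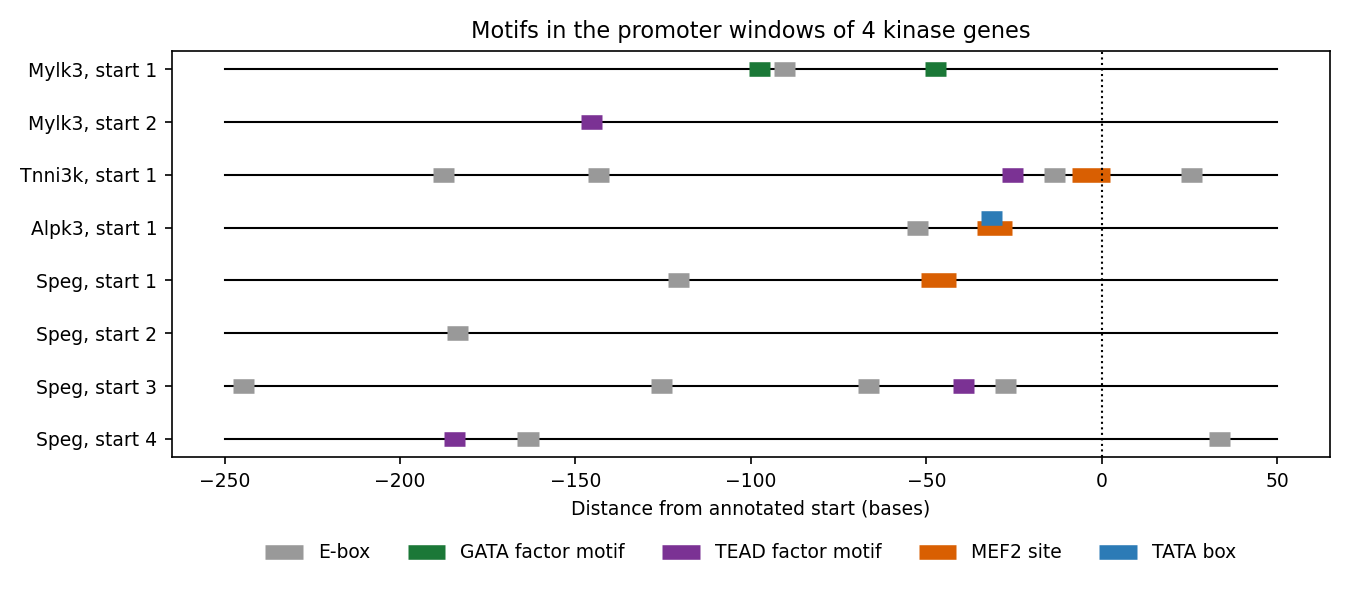
Motif matches in the 8 RefSeq promoter windows of Mylk3, Tnni3k, Alpk3 and Speg, 1 line per annotated start, against distance from that start in bases (dotted line, 0). MEF2 sites (orange) are present in Tnni3k, Alpk3 and Speg start 1, and the upstream Mylk3 window has 2 GATA factor motifs (green).

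The windows differed in base composition. GC content was 45.3% in Tnni3k and 52.0% and 50.7% at the Mylk3 starts, near or below the median of 52.7% for all windows. It was 59.7% in Alpk3 and ran from 62.3% to 75.7% over the Speg starts. CpG dinucleotides numbered 3 in Tnni3k, 5 and 3 at the Mylk3 starts, 15 in Alpk3 and 6 to 29 at the Speg starts, against a median of 7.

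The libraries held 6842296 promoter counts in TAC TSA, 8873302 in TAC Veh, 9905553 in Sham TSA and 9612616 in Sham Veh, over all transcripts. Levels below are counts per 1000000 (CPM) after TMM scaling, a trimmed mean of log ratios, over the 22835 genes. The lowest of 10 cardiomyocyte markers, Actn2, had 167 counts in TAC Veh, where promoters of olfactory and vomeronasal receptor genes averaged 24.5 counts each. None of these markers was at 0, but neither was any receptor promoter that passed the minimum count, so being above 0 is no check of the tissue. Promoters of 1455 olfactory and vomeronasal receptor genes, not used in heart and taken as background, held 0.677% of counts in TAC TSA (exact binomial 95% interval 0.670 to 0.685), 0.505% in TAC Veh (0.50 to 0.511), 0.427% in Sham TSA (0.422 to 0.431) and 0.420% in Sham Veh (0.415 to 0.425). Background was thus higher in both TAC libraries, and scaling on it instead moves the median of all genes by -0.24 on the log2 scale in TAC Veh over Sham Veh and by -0.38 in TAC TSA over TAC Veh.

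Acetylation at the Mylk3 promoter was 60.3 CPM in TAC TSA (304 counts), 31.0 CPM in TAC Veh (197 counts), 52.1 CPM in Sham TSA (361 counts) and 58.7 CPM in Sham Veh (398 counts). TAC Veh was the low library, with an exact Poisson 95% interval of 26.8 to 35.6 CPM that did not meet those of the other 3. Those 3 intervals overlapped each other between 53.8 and 57.8 CPM. With receptor-promoter scaling TAC TSA was below Sham Veh (log2 ratio -0.58, -0.80 to -0.36) and below Sham TSA (-0.38, -0.61 to -0.16). The medians of all genes were then -0.63 and -0.61.

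Tnni3k, the member with the fewest counts, had 20.2 CPM in TAC TSA (102 counts), 9.91 CPM in TAC Veh (63 counts), 22.8 CPM in Sham TSA (158 counts) and 20.8 CPM in Sham Veh (141 counts). Again TAC Veh stood alone, at an interval of 7.62 to 12.7 CPM, while the intervals of the other libraries overlapped. With receptor-promoter scaling TAC TSA was below both sham libraries, as was the median of all genes.

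For Alpk3 the levels were 45.9 CPM in TAC TSA (231 counts), 30.8 CPM in TAC Veh (196 counts), 49.2 CPM in Sham TSA (341 counts) and 44.0 CPM in Sham Veh (298 counts). TAC Veh (26.7 to 35.5 CPM) was below 3 overlapping libraries. With receptor-promoter scaling TAC Veh was within counting error of TAC TSA.

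Alpk2 had a different order, with 44.7 CPM in TAC TSA (225 counts), 25.8 CPM in TAC Veh (164 counts), 41.6 CPM in Sham TSA (288 counts) and 33.6 CPM in Sham Veh (228 counts). Both TSA libraries were highest and their intervals overlapped. With receptor-promoter scaling, however, TAC TSA was below Sham Veh (log2 ratio -0.21), within counting error. TAC Veh was lowest, yet its interval (22.0 to 30.1 CPM) met that of Sham Veh (29.4 to 38.3 CPM).

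Speg had 53.4 CPM in TAC TSA (269 counts), 42.8 CPM in TAC Veh (272 counts), 52.7 CPM in Sham TSA (365 counts) and 47.1 CPM in Sham Veh (319 counts). TAC Veh was lowest here too, except with receptor-promoter scaling, where TAC TSA was lower (log2 ratio -0.06 over TAC Veh), and the intervals of all 4 libraries overlapped (37.9 to 48.2 CPM in TAC Veh and 47.2 to 60.2 CPM in TAC TSA). No order of levels between the 5 genes is given, because the length of the counted window is not known.

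**Figure D2:**
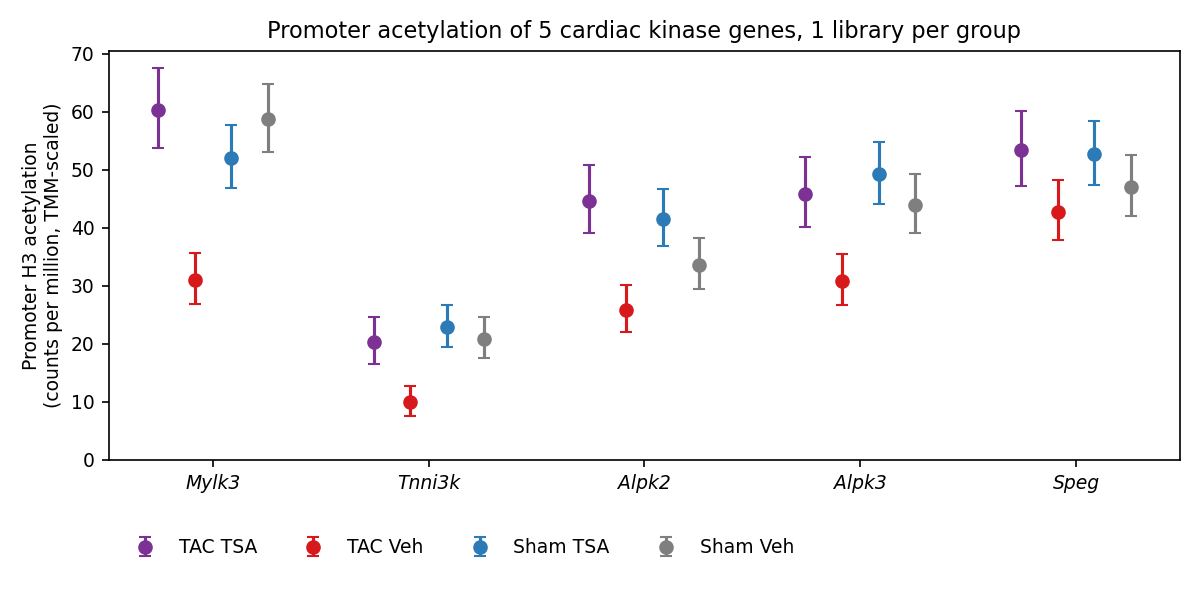
Promoter acetylation of the 5 kinase genes in TMM-scaled CPM, with 1 point per library and bars for the exact Poisson 95% interval (counting error). TAC Veh (red) is the lowest library at each gene (at Speg not with receptor-promoter scaling). It is clear of the others at Mylk3 (31.0 CPM), Tnni3k (9.91 CPM) and Alpk3 (30.8 CPM). At Alpk3 TAC Veh is within counting error of TAC TSA with receptor-promoter scaling.

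TAC Veh against Sham Veh addresses pressure overload without the inhibitor. A promoter was called when its ratio was at least 1.5-fold and the exact 95% conditional interval of its log2 ratio excluded 0. Mylk3 (log2 ratio -0.92, interval -1.18 to -0.67) and Tnni3k (-1.07, -1.52 to -0.63) were called lower, which is 1.89-fold and 2.10-fold. Those 2 of 5 stand beside 0.582% of all genes called lower and 1.93% called higher, and since such differences put them on the list, nothing is read from the excess. Among the 3974 genes of like count to Mylk3 (a ratio of mean counts of at least 0.8 either way), 2 had a lower ratio than Mylk3, and among the 2267 such genes for Tnni3k none had. For the same reason nothing is read from these ranks. With scaling by loess on mean count 196 genes were called higher and 248 lower in place of 440 and 133, and with receptor-promoter scaling 119 and 860.

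The other 3 members were below 0 without reaching 1.5-fold in TAC Veh over Sham Veh. Alpk3 was at -0.51 (-0.78 to -0.25) and Alpk2 at -0.38 (-0.68 to -0.09), both with intervals below 0. Speg was at -0.14 (-0.38 to 0.10), within counting error. The signs of these 5 ratios were the same under each scaling tried.

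TAC TSA over TAC Veh sets treated against untreated overload, and it shares the TAC Veh library with the comparison before it, so a low TAC Veh count enters both with opposite sign. Called higher were Tnni3k (log2 ratio 1.03, interval 0.56 to 1.51), Mylk3 (0.96, 0.70 to 1.23) and Alpk2 (0.79, 0.50 to 1.09), or 2.04-fold, 1.95-fold and 1.73-fold. These 3 of 5 stand beside 4.06% of all genes called higher and 0.342% called lower, a contrast on which members were also chosen. Of genes with counts like those of Mylk3, 1.06% were called higher. Loess scaling gave 303 genes higher and 248 lower where TMM gave 927 and 78, and receptor-promoter scaling 100 and 3259.

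Alpk3, at 1.49-fold, fell just short of the call in TAC TSA over TAC Veh (0.57, 0.29 to 0.85), with an interval above 0. Speg was at 0.32 (0.07 to 0.57). With receptor-promoter scaling Speg was at -0.06 and Alpk3 at 0.19, both with intervals that held 0, and Mylk3 (0.58) and Alpk2 (0.41) were below 1.5-fold, while the median of all genes was then -0.38. Tnni3k alone was still called, at 0.65.

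With TSA in both arms, TAC TSA over Sham TSA, none of the 5 was called, beside 7.2% of all genes called higher and 0.206% lower. These were 1643 and 47 genes, against 191 and 310 with loess and 102 and 11895 with receptor-promoter scaling. Among genes of like count, 0% were called higher for Mylk3 and Speg, 0.0655% for Alpk3, 0.119% for Alpk2 and 3.22% for Tnni3k. The log2 ratios were 0.21 for Mylk3 (-0.01 to 0.44), 0.10 for Alpk2 (-0.15 to 0.36), 0.02 for Speg (-0.21 to 0.25), -0.10 for Alpk3 (-0.35 to 0.14) and -0.17 for Tnni3k (-0.55 to 0.20), and each interval held 0. With receptor-promoter scaling all 5 were below 0, between -0.38 and -0.76, where the median of all genes was -0.61.

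Sham TSA over Sham Veh addresses the inhibitor without overload. No member was called, with 0.582% of genes called in each direction (133 each, against 109 higher and 171 lower with receptor-promoter scaling). Alpk2 was at 0.31 (0.05 to 0.56), the single interval of the 5 to exclude 0. Alpk3 and Speg were both at 0.16 (-0.07 to 0.39 and -0.06 to 0.38), Tnni3k at 0.13 (-0.20 to 0.47) and Mylk3 at -0.17 (-0.38 to 0.04). Mylk3 was the member on the other side of 0, within counting error.

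Treated overload was also set against untreated sham, as TAC TSA over Sham Veh. None of the 5 was called, beside 6.42% of genes higher and 0.0701% lower. These were 1467 and 16 genes, against 132 and 210 with loess and 103 and 12861 with receptor-promoter scaling. Among genes of like count, the share called higher was 0.0252% for Mylk3, 0.0266% for Speg and 0.0327% for Alpk3. It was 0.0793% for Alpk2 and 1.90% for Tnni3k. Mylk3 at 0.04 (-0.18 to 0.26), Tnni3k at -0.04 (-0.42 to 0.34), Alpk3 at 0.06 (-0.19 to 0.31) and Speg at 0.18 (-0.06 to 0.42) had intervals around 0, and Alpk2 was at 0.41 (0.14 to 0.68). With receptor-promoter scaling each was below 0, from -0.21 for Alpk2 to -0.66 for Tnni3k, with a median of -0.63 for all genes. The value of Alpk2 was then within counting error of 0.

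**Figure D3:**
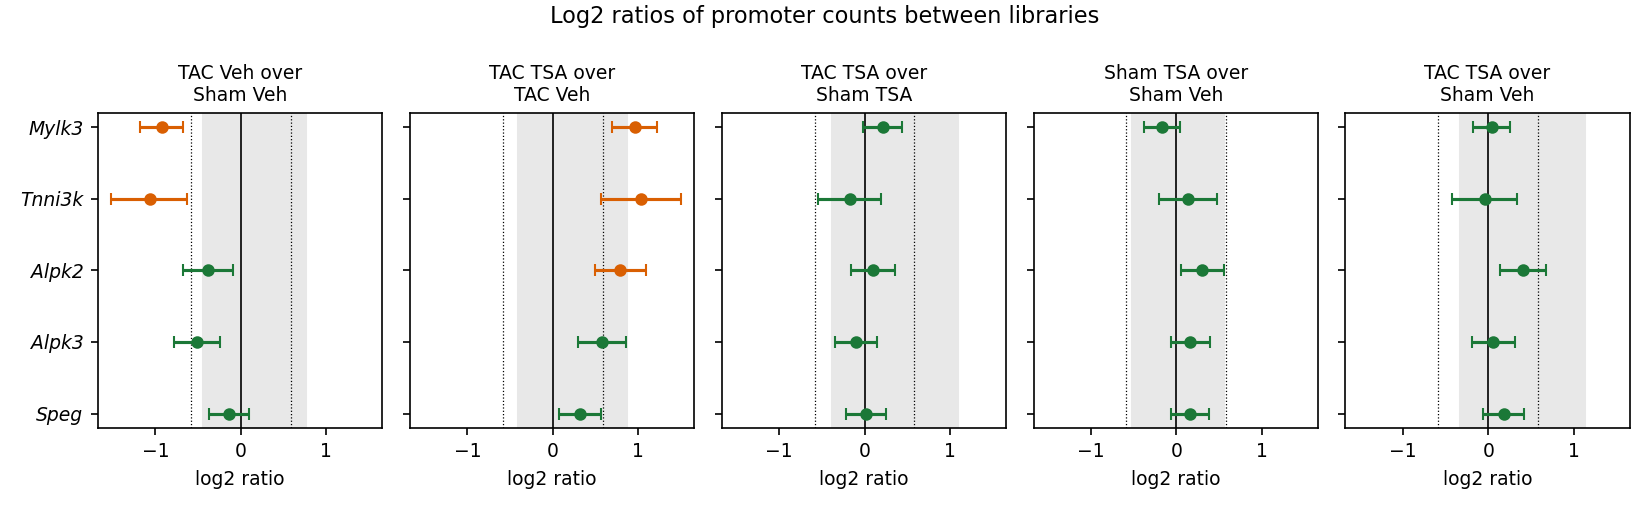
Log2 ratios of the 5 promoters (rows) in 5 comparisons (panels), with exact 95% counting intervals. Orange points are called, dotted lines mark 1.5-fold and grey bands hold the central 95% of all 22835 genes. Mylk3 and Tnni3k are called lower in TAC Veh over Sham Veh, Mylk3, Tnni3k and Alpk2 higher in TAC TSA over TAC Veh, and none elsewhere.

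The surgery by drug difference, log2 TAC TSA over Sham TSA minus log2 TAC Veh over Sham Veh, uses each library once. It was 1.13 for Mylk3 (0.80 to 1.46, from Poisson error on the log scale), 0.90 for Tnni3k (0.34 to 1.46), 0.49 for Alpk2 (0.10 to 0.87), 0.41 for Alpk3 (0.06 to 0.76) and 0.16 for Speg (-0.17 to 0.48). Mylk3 and Tnni3k were past 1.5-fold, beside 4.44% of genes past it upward and 1.27% downward. No gene of the 3974 with counts like those of Mylk3 had a larger value, but among all 22835 genes Mylk3 ranked 22402 from the lowest. Mylk3 and Tnni3k were picked because they moved in these libraries, so nothing is read from these calls and ranks. Receptor-promoter scaling turned Speg to -0.20 and left Mylk3 at 0.78, Tnni3k at 0.54, Alpk2 at 0.13 and Alpk3 at 0.06, with a median of -0.36 for all genes.

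The 4 Speg transcripts did not share 1 pattern. At NM_007463 there were 239 counts in TAC TSA, 187 in TAC Veh, 330 in Sham TSA and 273 in Sham Veh. That made TAC Veh low, at -0.45 over Sham Veh (-0.73 to -0.18) and with TAC TSA over TAC Veh at 0.69 (0.41 to 0.97), which is past 1.5-fold. At NM_001085371 the counts were 216 in TAC TSA, 261 in TAC Veh, 313 in Sham TSA and 281 in Sham Veh, and the corresponding ratios were -0.01 (-0.26 to 0.23) and 0.06 (-0.20 to 0.33). With receptor-promoter scaling NM_007463 was at 0.31 in TAC TSA over TAC Veh, below 1.5-fold, and at -0.69 in TAC Veh over Sham Veh, called lower, and NM_001085371 was at -0.32 in TAC TSA over TAC Veh. The intervals of these transcripts in TAC TSA over TAC Veh did not overlap. NM_001173477, the transcript with the highest mean count and the one used above, and NM_001085370 (-0.32, -0.63 to -0.0022, and 0.19, -0.15 to 0.54) lay between them in TAC TSA over TAC Veh.

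Gm15179, a long non-coding RNA gene and the nearest annotated neighbour of Speg on the low-coordinate side, had 241 counts in TAC TSA, 187 in TAC Veh, 327 in Sham TSA and 279 in Sham Veh, close to those of NM_007463. In GRCm38.p6 its promoter window, on the opposite strand, shares 219 bases with that of the most upstream Speg start shown above, the one with the MEF2 site. Reads of both genes there cannot be told apart, and which start NM_007463 uses is not in the tables used here. The neighbour on the other side, Gmppa, an enzyme subunit of sugar nucleotide metabolism, was at 0.00 in TAC Veh over Sham Veh (-0.20 to 0.20) and -0.19 in TAC TSA over TAC Veh (-0.42 to 0.03).

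**Figure D4:**
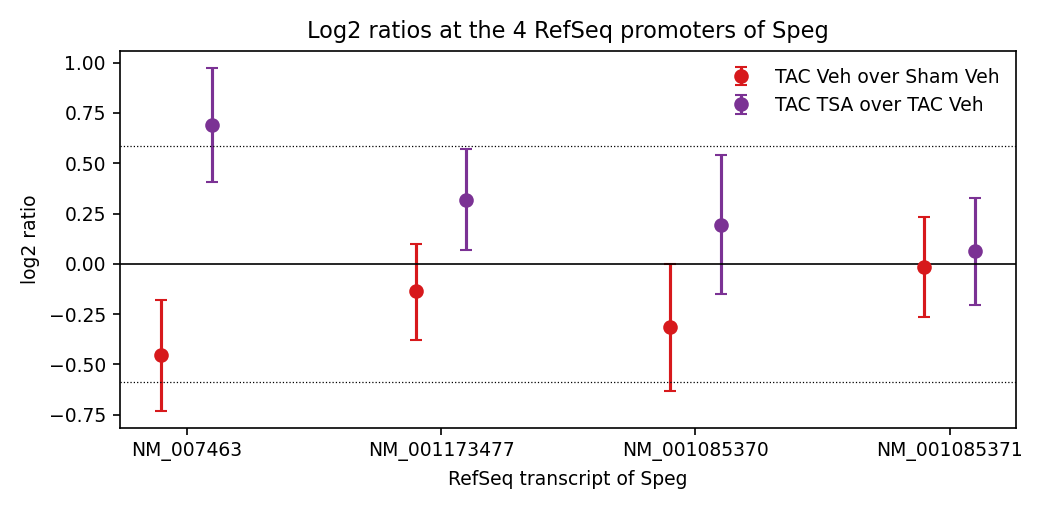
Log2 ratios at the 4 RefSeq transcripts of Speg, TAC Veh over Sham Veh in red and TAC TSA over TAC Veh in purple, with exact 95% counting intervals and dotted lines at 1.5-fold. NM_007463 reaches 0.69 in TAC TSA over TAC Veh, and NM_001085371 is at 0.06 (0.31 and -0.32 with receptor-promoter scaling).

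The measured neighbours of the other members are given first for TAC Veh over Sham Veh. Fpgt, next to Tnni3k and encoding a fucose-metabolism enzyme, had 211 counts in TAC TSA, 315 in TAC Veh, 306 in Sham TSA and 318 in Sham Veh, and was at 0.08 in TAC Veh over Sham Veh (-0.15 to 0.31). Beside Mylk3, Orc6, a subunit of the origin recognition complex, was at -0.10 (-0.24 to 0.04) and 4921524J17Rik at -0.05 (-0.26 to 0.15). Malt1, a signalling protease gene next to Alpk2, was at -0.07 (-0.25 to 0.12) and Zfp592, next to Alpk3, at 0.10 (-0.06 to 0.25). In TAC TSA over TAC Veh, Fpgt was at -0.24 (-0.50 to 0.01), Malt1 at -0.22 (-0.43 to -0.01), Zfp592 at -0.16 (-0.33 to 0.01), Orc6 at -0.13 (-0.29 to 0.03) and 4921524J17Rik at 0.09 (-0.13 to 0.30). The interval of Malt1 lay below 0, on the other side from Alpk2. On the other side of Alpk3 lay the nucleoside transporter gene Slc28a1, at -0.30 (-0.66 to 0.05) and, in TAC TSA over TAC Veh, 0.55 (0.18 to 0.91). The remaining neighbours, Erich3 (18 to 30 counts) and Mir122 (45 to 50 counts), had too few counts to place.

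Profiles over the 4 libraries, as log2 levels centred on each gene's mean, were compared by Euclidean distance with the 15669 genes of at least 100 mean counts. Nearest to Mylk3 were Asb2 (distance 0.09), a muscle ubiquitin ligase subunit, Myocd (0.18), a coactivator of muscle genes, and Mhrt (0.19), a long non-coding RNA of the myosin heavy chain locus. Tnni3k was nearest to the muscle microRNA genes Mir1a-2 (0.09) and Mir1b (0.10), whose counts were nearly the same (236 and 240 in TAC TSA), and to Mir208b (0.15). The closest to Alpk3 were Gpd1 (0.02), a glycerol phosphate dehydrogenase, and the sarcomere genes Tnni3 (0.06) and Myl2 (0.06). Alpk2 was closest to Atp1b1 (0.03), a sodium pump subunit, Adra1a (0.07), an adrenergic receptor, and Trim55 (0.07), a muscle ubiquitin ligase. For Speg they were Slc39a5 (0.02), Mir700 (0.02) and Eci3 (0.03), and Mylk3 ranked 15375 in nearness to it. Among the members, Tnni3k ranked 75 in nearness to Mylk3, and Mylk3 ranked 30 to Tnni3k.

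Of the 6 alpha kinases, which besides Alpk2 and Alpk3 include Alpk1, the elongation factor kinase Eef2k and the channel kinases Trpm6 and Trpm7, none was called in TAC Veh over Sham Veh (median -0.07) and Alpk2 was the 1 called higher in TAC TSA over TAC Veh (median -0.04). The median over all genes was 0.00 in both comparisons. Of all genes 0.582% were called lower in TAC Veh over Sham Veh and 4.06% higher in TAC TSA over TAC Veh. Alpk1 was at -0.38 in TAC TSA over TAC Veh (-0.71 to -0.05) and Trpm7 at -0.07 (-0.25 to 0.10), and both were below Alpk2.

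Of the myosin light chain kinases 3 of 4 were measured. Mylk3, picked because it moved, was the 1 called in TAC Veh over Sham Veh and in TAC TSA over TAC Veh. Of all genes 0.582% were called lower in TAC Veh over Sham Veh and 4.06% higher in TAC TSA over TAC Veh. Mylk2, the skeletal muscle form, was at -0.28 in TAC Veh over Sham Veh (-0.61 to 0.05) and 0.22 in TAC TSA over TAC Veh (-0.14 to 0.57). The smooth muscle form Mylk had 44 to 52 counts per library. In the surgery by drug difference 4.44% of all genes were past 1.5-fold upward. Mylk2 was past it there beside Mylk3, at 0.67 (0.20 to 1.14), with Sham TSA over Sham Veh at -0.45 (-0.79 to -0.13). With receptor-promoter scaling that difference was 0.32 (-0.15 to 0.79) and not called, and Mylk2 was at -0.17 in TAC TSA over TAC Veh. Among the giant sarcomere kinases titin, Ttn, was called higher in TAC TSA over TAC Veh (0.79, 0.52 to 1.07) and was at -0.40 in TAC Veh over Sham Veh (-0.67 to -0.13). With receptor-promoter scaling Ttn was at 0.41 in TAC TSA over TAC Veh, no longer called, and at -0.64 in TAC Veh over Sham Veh, called lower.

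Substrates and partners of the sarcomere kinases numbered 21, all measured. The list median was -0.23 in TAC Veh over Sham Veh, where 0.582% of all genes were called lower and 1.93% higher. In that comparison 3 of the 21 were called lower and 0 higher. They were the calcium release channel Ryr2 (-0.71, -0.99 to -0.43), troponin T, Tnnt2 (-0.61, -0.82 to -0.41), and the titin-binding ubiquitin ligase Trim63 (-0.59, -0.89 to -0.28). Myl2, the substrate of Mylk3, was at -0.54 (-0.75 to -0.33), short of 1.5-fold. Of all genes 4.06% were called higher and 0.342% lower in TAC TSA over TAC Veh. There 6 of the 21 were called higher and 0 lower, with a median of 0.39, among them Trim63 (0.81, 0.50 to 1.13) and Ryr2 (0.78, 0.48 to 1.07). With receptor-promoter scaling that median was 0.00 and none was called. Myl2, Ryr2, Tnnt2, Tnni3 and Mybpc3 are on the cardiomyocyte marker list as well. In TAC Veh over Sham Veh that scaling gave 6 called lower in place of 3, beside 860 of all 22835 genes.

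Signalling kinases of the heart, 34 genes that included Camk2, Prkc, Mapk and Akt members, had 0 genes called in TAC Veh over Sham Veh (median -0.03). Of all genes 0.582% were called lower and 1.93% higher there. In TAC TSA over TAC Veh, where 4.06% of all genes were called higher, 1 of the 34 was called higher (median -0.07). That gene, picked out after its values were seen, was Camk2b (0.59, 0.18 to 1.01), just past 1.5-fold. It was not called with loess scaling, nor with receptor-promoter scaling (0.21, -0.20 to 0.63). The members of this list furthest from 0 in TAC Veh over Sham Veh were Pak1 (0.58, 0.18 to 0.98) and Camk2a (-0.44, -0.71 to -0.18). Next were the myotonic dystrophy kinase Dmpk (-0.37, -0.55 to -0.19) and Prkca (0.28, 0.09 to 0.47). With receptor-promoter scaling the intervals of Pak1 and Prkca held 0, and those of Camk2a and Dmpk lay further below 0.

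The summed level of the 10 cardiomyocyte markers was 686 CPM in TAC TSA, 403 CPM in TAC Veh, 691 CPM in Sham TSA and 598 CPM in Sham Veh, and 6 of the 10 were called lower in TAC Veh over Sham Veh (median -0.60) and 9 of 10 higher in TAC TSA over TAC Veh (median 0.69). Beside these, 0.582% of the 22835 genes were called lower and 1.93% higher for TAC Veh against Sham Veh. The shares for TAC TSA against TAC Veh were 4.06% higher and 0.342% lower. With receptor-promoter scaling 9 of the 10 markers were called lower in TAC Veh over Sham Veh. Under it 2 were called higher in TAC TSA over TAC Veh, with a median of 0.30 there. That scaling called 119 genes higher and 860 lower in the first comparison, and 100 and 3259 in the second. These values for all genes apply to each marker list here. The 8 fibroblast markers summed to 271 CPM in TAC TSA, 332 CPM in TAC Veh, 275 CPM in Sham TSA and 259 CPM in Sham Veh, with 2 of 8 called higher in TAC Veh over Sham Veh, Postn (0.79, 0.45 to 1.13) and Mfap5 (0.61, 0.30 to 0.91), and neither was called there with receptor-promoter scaling (0.55 and 0.37). Of the leukocyte markers 7 of 8 were measured, and they summed to 113 CPM in TAC TSA, 153 CPM in TAC Veh, 152 CPM in Sham TSA and 116 CPM in Sham Veh, with 1 called higher in TAC Veh over Sham Veh (median 0.47) and 2 lower in TAC TSA over TAC Veh (median -0.42), or 0 and 5 with receptor-promoter scaling. The 6 endothelial markers summed to 464 CPM in TAC TSA, 435 CPM in TAC Veh, 490 CPM in Sham TSA and 505 CPM in Sham Veh, lowest in TAC Veh like the kinases. None was called, but all 6 were below 0 in TAC Veh over Sham Veh (median -0.28), 5 of them with intervals below 0. Their median was 0.06 in TAC TSA over TAC Veh, or -0.32 with receptor-promoter scaling, under which TAC TSA was lower than TAC Veh. Smooth muscle markers summed to 198 CPM in TAC TSA, 221 CPM in TAC Veh, 195 CPM in Sham TSA and 194 CPM in Sham Veh, and none of the 6 was called (1 lower in TAC TSA over TAC Veh with receptor-promoter scaling). Pdgfrb, a receptor of mural cells, was furthest from 0, at 0.40 in TAC Veh over Sham Veh (0.20 to 0.60) and -0.50 in TAC TSA over TAC Veh (-0.73 to -0.28). No marker was at 0 in any library. In whole tissue fewer cells of a type and less acetylation per cell cannot be told apart, and the part of cell mixture in the kinase ratios was not tested.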

How the data were processed

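Raw promoter counts were deposited by the authors as 1 table of whole-number read counts per RefSeq transcript and library. BWA 0.5.9, MACS 1.4.1 and build mm9 are named per the submitters' processing notes. Their roles, the promoter window, the counting tool and any duplicate removal: not given in the sources used here. Per the labels' protocols, libraries were amplified by PCR, and PCR reads without molecular identifiers are not independent molecules.

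Of 31594 transcripts 31115 (98.5%) were matched to symbols of GRCm38.p6, used for names, neighbours and printed sequences. The 479 others, with 1.11% of counts, were left out. Each gene was represented by its transcript with the highest mean count, and a mean count of at least 10 was required. Scaling factors were TMM (edgeR 4.0.16, R 4.3.3). Ratios carry exact 95% conditional (Clopper-Pearson) intervals and levels exact Poisson ones (scipy 1.17.1, numpy 2.4.6 and pandas 2.3.3 in Python 3.11.15). Each group being 1 library, conditions were not tested against each other. The interval and call code was tested on simulated counts with known folds, where 2-fold differences were missed more often below a mean count of 100. The set of genes of like count was chosen after seeing the data. The 5 members and the 10 gene lists were chosen with earlier results of these data known. Named list genes are up to 4 per list of at least 100 mean counts with the largest ratios in TAC Veh over Sham Veh, and 3 genes of nearest profile were named per member. Figures were drawn with matplotlib 3.10.9 and loess was run with statsmodels 0.14.6. The 6 deposited region lists, in mm9 coordinates without gene names, were not used here, because no mm9 annotation was at hand. Both sham libraries, and neither TAC library, cite an earlier deposit in their labels, so surgery and the making of the libraries cannot be told apart. A result for 1 list gene is not reported here.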

Additional observations from a re-analysis of the deposited data

Results flagged for a closer look

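Mylk3 had opposite signs in pairs of like comparisons. TAC over sham was 0.21 (-0.01 to 0.44) with TSA and -0.92 with vehicle, and TSA over vehicle was 0.96 after TAC and -0.17 (-0.38 to 0.04) after sham surgery, a difference of 1.13 (0.80 to 1.46) in both readings. The values 0.21 and -0.17 were within counting error of 0, so a reversal of direction is not shown. Alpk2 was at 0.10 in TAC TSA over Sham TSA (-0.15 to 0.36, within counting error of 0) and at -0.38 in TAC Veh over Sham Veh, a difference of 0.49 (0.10 to 0.87). With receptor-promoter scaling, which put the median of all genes at -0.61 in TAC TSA over Sham TSA, that comparison was at -0.38 for Mylk3 and -0.49 for Alpk2, so neither differed in sign from TAC Veh over Sham Veh. TSA over vehicle at Mylk3 still differed in sign under that scaling, at 0.58 after TAC and -0.20 (-0.41 to 0.01) after sham surgery, and its difference was 0.78. The condition for listing these genes, opposite signs and a difference whose interval excludes 0, was settled after values were seen. With 1 library per group the difference was not tested, and its intervals cover counting error only.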

How the results depend on the processing

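No paired analysis was possible because each group has 1 library, and no library could be left out for the same reason. The count of members called lower in TAC Veh over Sham Veh was 2, and it was 4 with receptor-promoter scaling, 4 at a lower fold threshold and 1 at 2-fold. Members called higher in TAC TSA over TAC Veh numbered 3, and 1 with receptor-promoter scaling and 1 at 2-fold. Where none was called, receptor-promoter scaling gave 2 lower in TAC TSA over Sham TSA and 1 lower in TAC TSA over Sham Veh, and the lower fold threshold gave 1 higher in TAC TSA over Sham Veh. Median-of-ratios, total-count and loess scaling, no filter on low counts and the sum over a gene's transcripts left these counts within 1.5 times. Each of the 30 member values under each of those 5 settings stayed within its own counting interval, and receptor-promoter scaling moved 17 of 30 outside it. Receptor-promoter scaling gave 119 genes higher and 860 lower in TAC Veh over Sham Veh, and 100 higher and 3259 lower in TAC TSA over TAC Veh. Of the 22835 genes it called 11895 lower in TAC TSA over Sham TSA and 12861 lower in TAC TSA over Sham Veh. Shares of all genes at the other fold thresholds are not given here. The cause of the higher receptor share in the TAC libraries was not tested. Depth limits Tnni3k most, at 63 counts in TAC Veh.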
